A study of Rattus norvegicus with 74 samples.

Results

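The liver response to DE-71 at 50 mg/kg was set against the liver response to BDE-47 at the same dose, over 19 of the 74 arrays in the series. DE-71 is a commercial mixture of polybrominated diphenyl ethers, once used as a flame retardant, and BDE-47 is a single compound of this class and a major component of the mixture. The samples were livers of Wistar Han rat pups taken on postnatal day 22. Dams were dosed by daily oral gavage on gestation days 6 to 21 and pups on postnatal days 12 to 21. The groups were DE-71 50 mg/kg (4 samples, replicates 2 to 5), DE-71 0 mg/kg (5 samples), BDE-47 50 mg/kg (5 samples) and BDE-47 0 mg/kg (5 arrays, counted as 4 samples). For each gene the response to an agent was the mean log2 expression at 50 mg/kg minus that at 0 mg/kg of the same agent, and the quantity tested was the DE-71 response minus the BDE-47 response. Levels were never compared across agents, because the agents look normalized separately. The comparison asks whether the mixture and its component give the same response. Each gene was read from the probe set with the highest mean among those with 1 gene. Sex and litter are not in the labels, so p-values cover variation among sampled livers, which may be partly technical. That variation was pooled over the 72 samples of the main fit, which include other doses and rats given other agents. The p-values therefore do not rest on the spread of the 19 arrays alone. The Y-linked genes Eif2s3y and Uty had log2 values of 8.24 to 9.42 and 7.01 to 8.13 over the samples compared here, and Xist 2.61 to 3.21. This is the pattern of male livers.

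Brominated diphenyl ethers are known to act on the rodent liver through the nuclear receptors CAR and PXR, which phenobarbital also engages. These receptors raise cytochrome P450 enzymes of the Cyp2 and Cyp3 families, carboxylesterases, and enzymes that attach sulfate or glucuronide to foreign compounds and hormones. The aryl hydrocarbon receptor (AhR) is a separate sensor of planar aromatic compounds such as PCB126, and Cyp1a1, Cyp1a2 and Cyp1b1 are its best known targets. The liver also holds resident macrophages, called Kupffer cells, and lymphocytes, whose transcripts are measured together with those of hepatocytes in whole tissue. In such bulk samples fewer cells of a type and less RNA per cell cannot be told apart.

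Some arrays stood apart or were nearly identical to others. DE-71 50 mg/kg replicate 2 had the lowest mean correlation with its group (0.9783, against 0.9845 for the next lowest of the 19 arrays) and an array weight of 0.225. The arrays of BDE-47 0 mg/kg replicates 3 and 4 were nearly identical and were averaged into 1 sample. DE-71 50 mg/kg replicate 4 was nearly identical to an array labelled DE-71 15 mg/kg, and BDE-47 50 mg/kg replicate 3 to an array labelled BDE-47 15 mg/kg, with root mean square differences of 0.124 and 0.105 on the log2 scale over the most variable genes. Which dose these arrays represent is not known, and the numbers of genes called in the difference and in each response are also given without them. Hepatocyte markers were abundant in every sample, with a log2 summed level of 16.45 to 16.65 in DE-71 50 mg/kg livers and 16.57 to 16.68 in DE-71 0 mg/kg livers, and of 16.62 to 16.69 in BDE-47 50 mg/kg livers and 16.61 to 16.65 in BDE-47 0 mg/kg livers. Pancreas and gut markers gave no call in either response, while 1 (Fabp2) rose with DE-71 without the arrays resembling 15 mg/kg arrays. Their summed log2 level was 10.55 to 11.41 in DE-71 50 mg/kg livers and 10.38 to 10.96 in DE-71 0 mg/kg livers, and 10.17 to 10.38 in BDE-47 50 mg/kg livers and 10.46 to 10.55 in BDE-47 0 mg/kg livers, without overlap for BDE-47. Summed cholangiocyte markers were higher with both agents, at 9.0 to 9.63 in DE-71 50 mg/kg livers and 7.73 to 8.35 in DE-71 0 mg/kg livers, and 9.16 to 9.70 in BDE-47 50 mg/kg livers and 8.15 to 8.51 in BDE-47 0 mg/kg livers. Of the 4 cholangiocyte markers only Epcam, an epithelial adhesion protein, was called, with rises of 1.28 and 1.35. The part of these markers in the results was not tested.

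Few genes were called in the difference between the responses to DE-71 and BDE-47. In limma, 17 of 14217 genes were called at a Benjamini-Hochberg adjusted p below 0.05, which is 0.12% of the genes tested. The response was more positive to DE-71 for 15 genes (0.106%) and more negative for 2 genes (0.0141%). Of the 17 genes, 13 were called in the DE-71 response only, 3 in the BDE-47 response only, and Cyp1a1 in both with the same sign. The fitted responses had opposite signs in 13 of the 17, none of them with both responses called. Choosing genes by a large difference favours opposite signs, so this count does not show opposed effects. Without DE-71 50 mg/kg replicate 2 only Cyp1a2 and Prf1 were called (0.0141%), although all 17 kept their sign. With only these 4 groups in the limma fit no gene was called, while 1250 genes had an unadjusted p below 0.05, against 1617 (11.4%) in the fit of all groups. The lowest adjusted p among the called genes was then 0.056, for Cyp1a2, Prf1 and Cfp. Without the 2 arrays that were nearly identical to 15 mg/kg arrays, 53 genes were called, 47 of them more positive (0.331%).

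Each agent alone changed many more genes. DE-71 changed 1448 genes (10.2% of those tested), of which 687 rose (4.83%) and 761 fell (5.35%), but 388 (2.73%) without replicate 2, of which 241 rose (1.7%) and 147 fell (1.03%). BDE-47 changed 573 genes (4.03%), of which 334 rose (2.35%) and 239 fell (1.68%). Both agents changed 286 genes, which is 19.8% of the DE-71 calls and 49.9% of the BDE-47 calls. Without replicate 2 the shared genes numbered 190, which is 49.0% of the DE-71 calls and 28.7% of the 661 BDE-47 calls, so which share is larger turned on that sample. All 286 moved in the same direction, 194 up and 92 down, and only Cyp1a1 among them was called in the difference. For 237 of the 286 genes the 95% interval of the difference lay within 2-fold in either direction, against 13204 of all 14217 genes (92.9%).

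**Figure D1:**
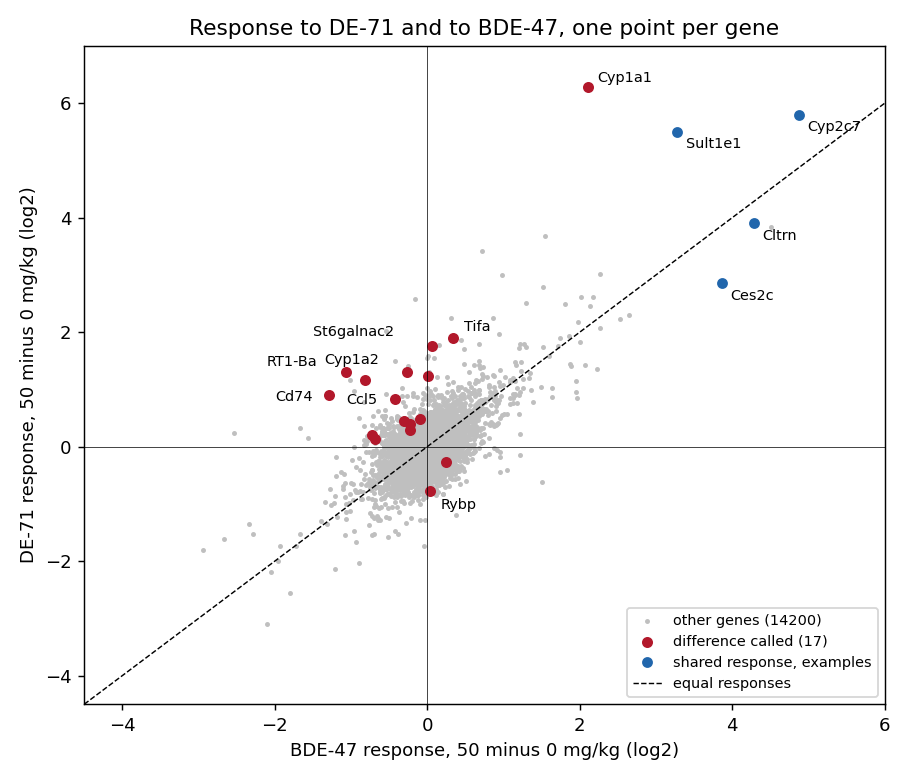
The DE-71 response (vertical axis, log2, 50 minus 0 mg/kg) is plotted against the BDE-47 response (horizontal axis, log2) for each gene, with the 17 genes called in the difference in red and 4 genes with a shared response in blue. Cyp1a1 lies far above the dashed line of equal responses. Of the 17 red points 13 lie where the responses have opposite signs, none of them with both responses called.

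Cyp1a1, the P450 that metabolizes polycyclic aromatic compounds, had the largest called difference. It had log2 values of 13.35, 12.76, 13.03 and 13.60 in the DE-71 50 mg/kg livers and 6.80, 4.41, 8.05, 7.69 and 7.59 in the DE-71 0 mg/kg livers. It had 11.65, 11.35, 11.42, 12.02 and 11.60 in the BDE-47 50 mg/kg livers and 8.97, 10.84, 9.55 and 8.66 in the BDE-47 0 mg/kg livers. Neither dosed group overlapped its own control, and the controls were spread over several log2 units. Cyp1a1 rose by 6.28 (77.6-fold, adjusted p = 1e-11) with DE-71 and by 2.11 (4.3-fold, adjusted p = 0.029) with BDE-47. The responses differed by 4.17 on the log2 scale (95% interval 2.47 to 5.88, adjusted p = 0.017). Without replicate 2 the difference was 4.12 and its adjusted p was 0.054. Since each agent is set against its own controls, unequal control levels and a difference in scale between the agents cannot be told apart.

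Cyp1a2, a P450 of the same family that is already abundant in untreated liver, was the most firmly called gene. Its log2 values were 13.92, 13.77, 13.74 and 14.22 in DE-71 50 mg/kg livers and 12.24, 12.17, 12.53, 12.88 and 13.18 in DE-71 0 mg/kg livers. They were 12.70, 12.61, 12.65, 13.02 and 12.87 in BDE-47 50 mg/kg livers and 12.83, 13.24, 13.15 and 12.89 in BDE-47 0 mg/kg livers. All DE-71 dosed samples lay above their controls, whereas the BDE-47 groups overlapped. Cyp1a2 rose by 1.31 (2.49-fold, adjusted p = 7e-08) with DE-71 and had a response of -0.26 (adjusted p = 0.5) to BDE-47. The difference of 1.57 (1.10 to 2.05, adjusted p = 0.00015) was also called without replicate 2 (adjusted p = 0.0006) and in 18 of 18 fits that left out a sample.

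Cyp1b1, a P450 of steroids and aromatic compounds, varied widely between DE-71 livers. It had 8.45, 4.84, 6.78 and 10.36 in DE-71 50 mg/kg livers, against 4.81 to 5.14 in DE-71 0 mg/kg livers, and 4.67 to 4.98 in BDE-47 50 mg/kg livers, against 4.79 to 5.11 in BDE-47 0 mg/kg livers. Of the DE-71 dosed livers 3 lay above every control and replicate 3 lay within the controls. Cyp1b1 rose by 2.58 (5.99-fold, adjusted p = 6.2e-05) with DE-71, and its difference of 2.75 (1.45 to 4.05) had an adjusted p of 0.058. These limma p-values rest on a spread pooled over all fitted groups. The dosed DE-71 livers had an SD of 2.36, against 0.12 to 0.13 in the other compared groups. The p-values therefore do not measure the spread of the dosed DE-71 livers alone. With only the 4 compared groups in the limma fit, the adjusted p of the difference was 0.51.

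The promoters of Cyp1a2 and Cyp1b1 are shown because the AhR and its partner ARNT bind the core GCGTG, and that of Cyp1a1 was not analysed here. The RefSeq sequences (GRCr8) of the 250 bases before the start are given 5′ to 3′ in gene orientation, with GCGTG or its reverse complement in capitals. Cyp1a2 is at chr8:66978150-66978399 on the minus strand and Cyp1b1 at chr6:21094315-21094564 on the plus strand.
Cyp1a2: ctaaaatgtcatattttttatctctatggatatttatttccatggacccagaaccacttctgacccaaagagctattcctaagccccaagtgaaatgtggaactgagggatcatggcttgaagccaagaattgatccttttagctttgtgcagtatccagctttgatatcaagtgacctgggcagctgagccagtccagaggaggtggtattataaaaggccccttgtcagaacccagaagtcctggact
Cyp1b1: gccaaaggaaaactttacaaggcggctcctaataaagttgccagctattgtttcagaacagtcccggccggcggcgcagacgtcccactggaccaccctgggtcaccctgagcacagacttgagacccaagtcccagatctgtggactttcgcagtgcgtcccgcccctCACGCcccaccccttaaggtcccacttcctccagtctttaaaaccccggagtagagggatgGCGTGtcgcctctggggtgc
The core was found 2 times before Cyp1b1, beginning 81 and 20 bases before the start, and 0 times before Cyp1a2. It was present on either strand in 25.9% of all 33469 promoter windows of 250 bases. Nqo1 and Tiparp, both AhR targets, held 1 match each, and Prf1 held 0. Absence of these letters says only that they are not in this window.

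The AhR target list had 13 measured genes, of which 2 (Cyp1a1 and Cyp1a2) were called in the difference, against 0.12% of all genes. DE-71 raised 7 (against 4.83% of all genes) and BDE-47 raised 3 (against 2.35%). The list's median difference was 0.20, against 0.02 over all genes, and 11 of 13 differences were positive. Nqo1, a quinone reductase, rose by 1.55 with DE-71 (adjusted p = 0.0037), had a BDE-47 response of 0.08, and had a difference of 1.47 (adjusted p = 0.29). Aldh3a1, an aldehyde dehydrogenase, rose by 1.54 with DE-71 (adjusted p = 9.4e-05) and had a BDE-47 response of -0.01, and its difference of 1.55 had an adjusted p of 0.087. Inmt, a methyltransferase, rose with both agents, by 1.58 and 1.59. Ahrr and Tiparp, which restrain AhR signalling, had responses between -0.07 and 0.00 to either agent. Without replicate 2, 1 gene of the list was called in the difference and 5 rose with DE-71 (against 0.0141% and 1.7% of all genes). Without the arrays resembling 15 mg/kg arrays 4 were called, with a more positive response to DE-71 (against 0.331%).

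Livers dosed with PCB126, an AhR agonist, came from other rats and are given as a description. The label gives the highest PCB126 dose as 250 without a unit. In these rats 5 genes were at least 2-fold higher with no overlap of the dosed and control samples (0.0352% of genes), namely Cyp1a1, Cyp1b1, Nqo1, Rup2 and Pcp4l1. DE-71 raised 4 of them (3 without replicate 2, against 4.83% and 1.7% of all genes) and BDE-47 raised 1 (against 2.35%). Pcp4l1 fell with both, though with DE-71 it was not called without replicate 2. All 5 differences between the agents were positive, with a median of 2.68 (1.73 without replicate 2). Cyp1a2 was 0.91 higher in the PCB126 rats, which is below the 2-fold bound.

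Among immune genes, Prf1 was the other gene called with and without replicate 2. Prf1 encodes perforin, the pore-forming protein of cytotoxic lymphocytes. Its log2 values were 4.57, 4.58, 4.12 and 4.25 in DE-71 50 mg/kg livers and 3.55, 3.56, 3.44, 3.67 and 3.50 in DE-71 0 mg/kg livers. They were 3.74, 3.58, 3.54, 3.87 and 3.48 in BDE-47 50 mg/kg livers and 4.35, 4.23, 4.21 and 3.46 in BDE-47 0 mg/kg livers. The DE-71 groups did not overlap and the BDE-47 groups did, and all of these are low signals on this array. Prf1 rose by 0.84 with DE-71 (1.79-fold, adjusted p = 0.00023) and had a BDE-47 response of -0.42 (adjusted p = 0.14). The difference was 1.26 (0.80 to 1.72, adjusted p = 0.0055, 0.037 without replicate 2).

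Ccl5, a chemokine that attracts T cells, differed by 1.98 (1.24 to 2.73, adjusted p = 0.0079, 0.054 without replicate 2). Its log2 values were 8.0, 7.93, 6.86 and 7.65 in DE-71 50 mg/kg livers and 5.83, 6.85, 6.49, 6.65 and 6.43 in DE-71 0 mg/kg livers. They were 6.14, 6.21, 5.77, 6.55 and 5.79 in BDE-47 50 mg/kg livers and 7.46, 7.33, 6.59 and 6.30 in BDE-47 0 mg/kg livers. The lowest DE-71 dosed sample was close to the highest control, and the BDE-47 groups overlapped. Ccl5 rose by 1.16 with DE-71 (adjusted p = 0.0021) and had a BDE-47 response of -0.82 (adjusted p = 0.06). A list of cytotoxic lymphocyte genes, added after values were seen, had 20 measured genes with a median difference of 0.19. Prf1 and Ccl5 were the 2 called (against 0.12% of all genes), and the other listed markers of lymphocytes had a median difference of 0.04. Of the 20 cytotoxic genes DE-71 raised 5 (4 without replicate 2, against 4.83% and 1.7% of all genes) and BDE-47 raised 0 (against 2.35%). The summed lymphocyte markers had log2 levels of 7.41 to 7.66 and 7.27 to 7.68 in the DE-71 50 and 0 mg/kg livers, and 7.18 to 7.50 and 7.29 to 7.96 in the BDE-47 50 and 0 mg/kg livers, and their part in the result was not tested.

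Cd74 and RT1-Ba, genes of antigen presentation by MHC class II, were called in the difference. Cd74, the invariant chain of MHC class II, had 9.0, 8.31, 7.87 and 9.31 in DE-71 50 mg/kg livers and 7.18, 7.73, 8.06, 7.93 and 7.70 in DE-71 0 mg/kg livers. It had 7.27, 7.26, 6.96, 7.78 and 6.94 in BDE-47 50 mg/kg livers and 8.68, 9.70, 7.95 and 7.78 in BDE-47 0 mg/kg livers. The DE-71 groups overlapped, and the BDE-47 groups met at 7.78. Cd74 had a DE-71 response of 0.90 (adjusted p = 0.08) and fell by 1.29 with BDE-47 (adjusted p = 0.017). The difference of 2.20 (1.22 to 3.17) was called at an adjusted p of 0.03, and in 8 of 18 fits that left out a sample.

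RT1-Ba, a class II chain of the rat, differed by 2.37 (1.32 to 3.42, adjusted p = 0.03). It had 8.46, 7.31, 7.43 and 9.06 in DE-71 50 mg/kg livers and 6.52 to 6.96 in DE-71 0 mg/kg livers, and 6.02 to 6.70 in BDE-47 50 mg/kg livers and 6.70 to 8.80 in BDE-47 0 mg/kg livers. The DE-71 groups did not overlap, and the BDE-47 groups met at 6.70. Without replicate 2 the adjusted p was 0.15 for both Cd74 and RT1-Ba. A class II list, added after values were seen, had 8 measured genes, of which 2 were called in the difference (against 0.12% of all genes), with a median of 1.42 (1.28 without replicate 2). DE-71 raised 3 of the 8 (0 without replicate 2, against 4.83% and 1.7% of all genes) and BDE-47 lowered 2 (against 1.68%). Without replicate 2 no member was called in the difference by limma. Without the arrays resembling 15 mg/kg arrays 4 were, with a more positive response to DE-71 (against 0.331% of all genes). Of the other members, RT1-Da, RT1-Db1, RT1-DMa and RT1-DMb had differences of 2.18, 1.93, 0.91 and 0.81 with adjusted p from 0.058 to 0.14. Ciita, the regulator of class II transcription, had a difference of 0.15, and RT1-Bb one of -0.55 (adjusted p = 0.85). BDE-47 0 mg/kg replicate 2 was the highest of its group for Cd74 (9.70), RT1-Ba (8.80), RT1-Da (9.01), RT1-Db1 (7.76) and RT1-DMa (6.78), but not for RT1-Bb (4.97). Without that control sample 5 of the 17 genes called in the difference were still called. The sign for RT1-Bb turned with the probe set, since its difference was 3.25 with the probe set of highest SD and 1.35 with the mean of all its probe sets. Its DE-71 response was -0.17, but 1.92 and 0.87 under these choices (adjusted p = 0.029 and 0.041).

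Most macrophage markers fell with BDE-47. Of 8 measured Kupffer cell and macrophage markers, 6 fell with BDE-47 (against 1.68% of all genes). With DE-71 0 of 8 changed, which is near the share of all genes (10.2%), and 0 had an unadjusted limma p below 0.05. All 8 differences were positive, with a median of 0.79, and 1 was called (against 0.12% of all genes). That gene was C1qc, a chain of complement C1q, with a difference of 0.94 (0.53 to 1.35, adjusted p = 0.03, 0.22 without replicate 2). C1qc had 9.33, 9.01, 8.80 and 8.82 in DE-71 50 mg/kg livers and 8.59, 8.74, 8.91, 9.05 and 8.63 in DE-71 0 mg/kg livers. It had 8.58, 8.4, 8.1, 8.52 and 7.82 in BDE-47 50 mg/kg livers and 9.22, 9.24, 8.84 and 8.76 in BDE-47 0 mg/kg livers. The DE-71 groups overlapped, and the BDE-47 groups did not. C1qc fell by 0.73 with BDE-47 (adjusted p = 0.00056), and Clec4f, Csf1r, Cd163, Cd68 and C1qa fell as well, by 0.80, 0.68, 0.62, 0.60 and 0.60. Without the arrays resembling 15 mg/kg arrays 4 markers fell with BDE-47 (against 1.52% of all genes). In the difference 2 were then called, with a more positive response to DE-71 (against 0.331%). The summed Kupffer markers had log2 levels of 11.82 to 12.21 and 11.50 to 12.06 in the DE-71 50 and 0 mg/kg livers, and 11.21 to 11.76 and 11.92 to 12.45 in the BDE-47 50 and 0 mg/kg livers. Whether fewer macrophages or less RNA per macrophage lies behind this cannot be told apart.

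The complement regulator Cfp (properdin) behaved like C1qc. It fell by 0.69 with BDE-47 (adjusted p = 7e-05), had a DE-71 response of 0.14 and a difference of 0.84 (0.49 to 1.18, adjusted p = 0.018). Its values were 5.91 to 6.4 in BDE-47 50 mg/kg livers and 6.71 to 7.07 in BDE-47 0 mg/kg livers, with no overlap. Ncf4, a subunit of the phagocyte NADPH oxidase, instead rose by 0.44 with DE-71 (adjusted p = 0.0053) and had a BDE-47 response of -0.31, and the difference was 0.75 (adjusted p = 0.021). The summed neutrophil markers had log2 levels of 6.87 to 9.82 and 6.80 to 8.74 in DE-71 50 and 0 mg/kg livers, and 6.56 to 7.53 and 7.11 to 7.83 in BDE-47 50 and 0 mg/kg livers. Their part in these results was not tested.

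Interferon-stimulated genes rose with DE-71 and were not called with BDE-47. Of 11 measured genes, 7 rose with DE-71 (against 4.83% of all genes) and 0 with BDE-47 (against 2.35%), where 1 had an unadjusted limma p below 0.05. The median response was 0.82 to DE-71 and 0.02 to BDE-47. None was called in the difference by limma and 7 had an unadjusted p below 0.05, while the median difference was 0.86 (0.72 without replicate 2) and 10 of 11 were positive. Without replicate 2, 5 rose with DE-71 (against 1.7% of all genes). Without the arrays resembling 15 mg/kg arrays 4 were called in the difference, with a more positive response to DE-71 (against 0.331%). Isg15, a ubiquitin-like protein, had 8.70, 7.82, 6.68 and 7.14 in DE-71 50 mg/kg livers, against 5.73 to 6.44 in DE-71 0 mg/kg livers. It had 5.79 to 6.57 in BDE-47 50 mg/kg livers, against 5.62 to 6.77 in BDE-47 0 mg/kg livers. Replicate 2 was the highest of the DE-71 samples, and no DE-71 dosed sample overlapped its controls. The Isg15 difference of 1.57 had an adjusted p of 0.069, and Oas1a, an enzyme of the antiviral response, had 1.41 with an adjusted p of 0.069. Of interferon-induced chemokines, Cxcl9 rose 7.97-fold with DE-71 (adjusted p = 7.3e-09) and its difference was 2.02 (adjusted p = 0.069). Its values also tended higher with BDE-47, at 5.85 to 7.43 in BDE-47 50 mg/kg livers and 5.05 to 6.35 in BDE-47 0 mg/kg livers, with overlap.

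**Figure D2:**
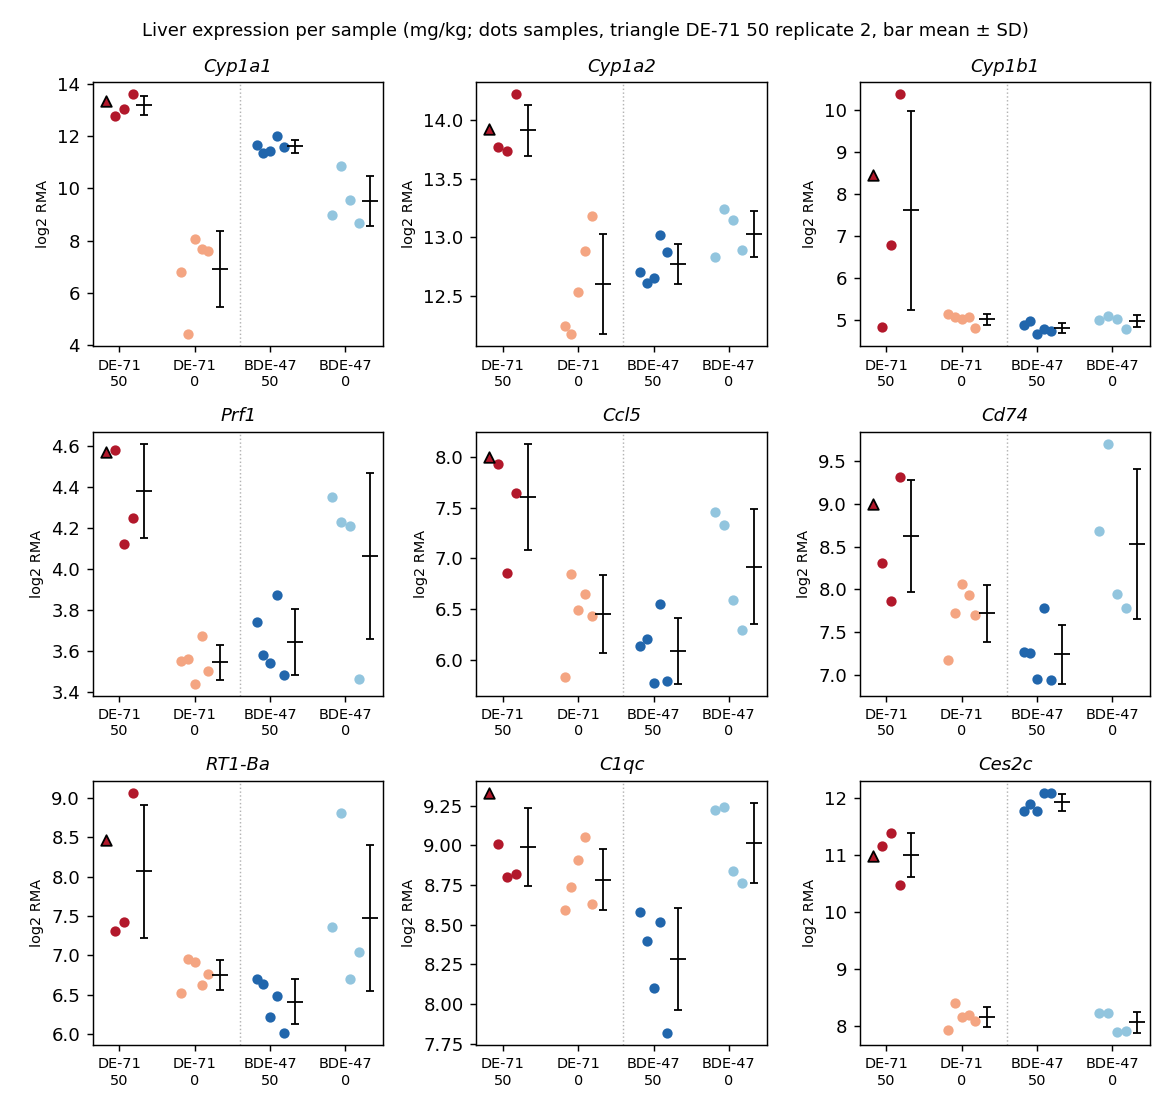
Log2 expression per sample of 9 genes in the DE-71 50, DE-71 0, BDE-47 50 and BDE-47 0 mg/kg groups, with the mean and SD as a bar and DE-71 50 mg/kg replicate 2 as a triangle. Levels left and right of the dotted line are not comparable. All DE-71 50 mg/kg values of Cyp1a2, 13.74 to 14.22, lie above their controls, and C1qc separates only in the BDE-47 groups.

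The other called genes belong to no fixed list as a group. Tifa, an adaptor of NF-kappaB signalling, rose by 1.90 with DE-71 (7.37 to 7.87 in DE-71 50 mg/kg livers and 5.17 to 6.2 in DE-71 0 mg/kg livers), had a BDE-47 response of 0.34, and differed by 1.56 (adjusted p = 0.042). Selenbp1, a selenium-binding protein, rose by 1.24 with DE-71 (11.41 to 12.86 in DE-71 50 mg/kg livers and 10.65 to 11.16 in DE-71 0 mg/kg livers), had a BDE-47 response of 0.01, and differed by 1.23 (adjusted p = 0.026). St6galnac2, a sialyltransferase, differed by 1.69 (adjusted p = 0.05 after rounding), but its values of 8.19, 4.72, 5.29 and 6.85 in DE-71 50 mg/kg livers overlapped the 4.26 to 4.85 of DE-71 0 mg/kg livers. Without replicate 2 its difference was 1.05 (adjusted p = 0.36). Rybp, a component of Polycomb complexes, fell by 0.77 with DE-71 (7.56 to 8.19 in DE-71 50 mg/kg livers and 8.68 to 8.88 in DE-71 0 mg/kg livers), had a BDE-47 response of 0.03, and differed by -0.80 (adjusted p = 0.016). Its adjusted p was 0.11 without replicate 2, and the difference was not called with the mean of its 2 probe sets. The remaining 4 called genes had small differences, of 0.61 for Got1l1, 0.58 for Acp2, 0.51 for Pih1d1 and -0.52 for Abhd11. Without replicate 2 their adjusted p was 0.054 to 0.1. With the probe set of highest SD in place of that of highest mean, Abhd11 had a difference of 0.01. With the mean of its probe sets Abhd11 was not called either.

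**Figure D3:**
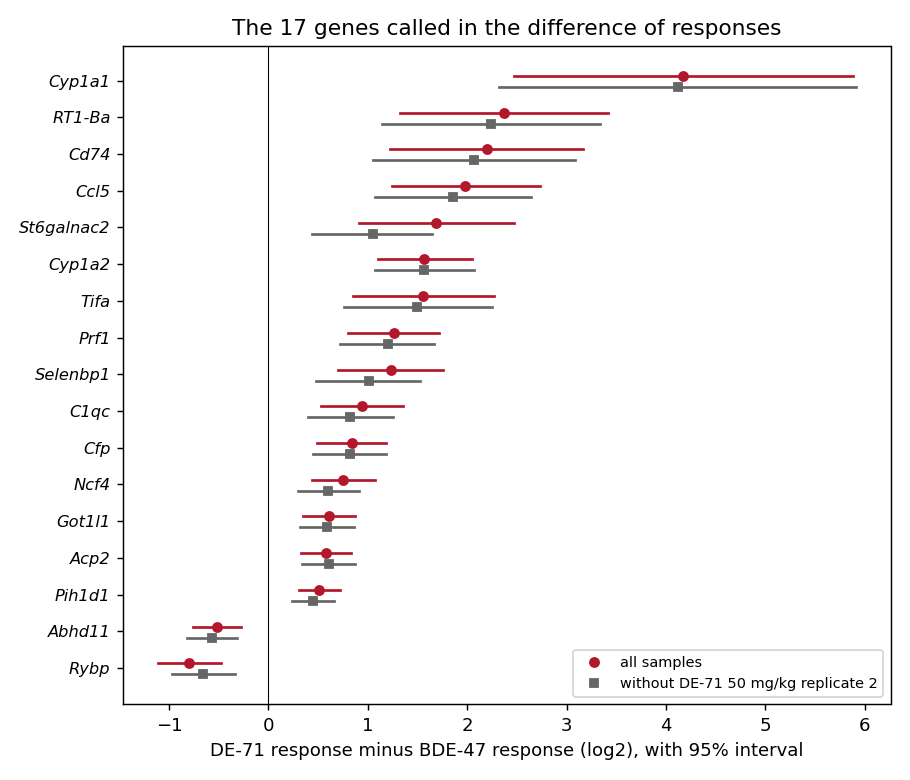
Difference of responses (horizontal axis, log2, DE-71 minus BDE-47) with its 95% interval for the 17 called genes (vertical axis), for all samples and without DE-71 50 mg/kg replicate 2. Cyp1a1 has the largest value, 4.17, and all 17 genes have the same sign with and without that sample.

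Targets of CAR and PXR responded to both agents. Of 23 measured genes of this list, DE-71 raised 17 (against 4.83% of all genes) and BDE-47 raised 19 (against 2.35%), with median responses of 1.13 and 1.02, and none was called in the difference by limma (median 0.02, 3 with an unadjusted p below 0.05). Cyp2c7, a P450 of steroid and drug oxidation, rose by 5.80 with DE-71 (13.01 to 13.52 in 50 mg/kg livers and 5.34 to 8.85 in 0 mg/kg livers) and by 4.87 with BDE-47 (13.40 to 13.67 in 50 mg/kg livers and 8.02 to 10.09 in 0 mg/kg livers). Neither dosed group overlapped its controls. The difference of 0.94 had an interval of -1.0 to 2.87, which is wide. Cyp2c6v1 differed by 0.02 (-0.25 to 0.28), Cyp3a23-3a1 by 0.09 (-0.24 to 0.42) and Ugt2b1, a glucuronosyltransferase, by 0.21 (-0.15 to 0.56), after rises of 0.78, 0.98 and 1.22 with DE-71 and of 0.76, 0.89 and 1.02 with BDE-47. These 3 intervals lie within 2-fold in either direction. The signals of these 3 genes in dosed livers, 13.39 to 14.02 with DE-71 and 13.28 to 14.03 with BDE-47, are high on this array. Whether such high signals are compressed was not tested. Cyp2b1 and Cyp2b2, well known CAR targets, share a probe set and are not reported. Cltrn and Cyp2a3 rose by 3.90 and 3.84 with DE-71 and by 4.28 and 4.51 with BDE-47, with differences of -0.38 (-1.51 to 0.75) and -0.67 (-2.26 to 0.93).

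Ces2c, a carboxylesterase, and Sult1e1, the estrogen sulfotransferase, had unequal responses that were not called. Ces2c had 10.98, 11.15, 11.39 and 10.48 in DE-71 50 mg/kg livers and 7.93 to 8.41 in DE-71 0 mg/kg livers, and 11.77 to 12.09 in BDE-47 50 mg/kg livers and 7.90 to 8.22 in BDE-47 0 mg/kg livers. Both dosed groups were well above their controls. The Ces2c responses were 2.85 and 3.86, with a difference of -1.01 (-1.73 to -0.30, adjusted p = 0.29). Sult1e1 had 10.62, 9.54, 7.77 and 9.33 in DE-71 50 mg/kg livers and 3.58 to 3.97 in DE-71 0 mg/kg livers, and 6.07 to 7.64 in BDE-47 50 mg/kg livers and 3.43 to 3.99 in BDE-47 0 mg/kg livers. Its difference was 2.23 (0.46 to 4.01, adjusted p = 0.33). Sult2a2, another sulfotransferase, rose by 3.68 with DE-71 and had a BDE-47 response of 1.55 (adjusted p = 0.22), with a difference of 2.13 (adjusted p = 0.39).

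Genes that fell with both agents included sterol exporters. Abcg5 and Abcg8, which together form a transporter that secretes cholesterol into bile, fell by 1.61 and 1.81 with DE-71 and by 2.66 and 2.94 with BDE-47. Abcg8 had 3.90 to 5.67 in DE-71 50 mg/kg livers and 5.77 to 7.38 in DE-71 0 mg/kg livers, and 3.51 to 4.38 in BDE-47 50 mg/kg livers and 6.70 to 7.36 in BDE-47 0 mg/kg livers. The Abcg8 groups did not overlap in either agent. Abcg5 had 6.17 to 7.94 in DE-71 50 mg/kg livers and 7.48 to 9.22 in DE-71 0 mg/kg livers, where replicate 4 lay within the controls, and 5.43 to 6.55 in BDE-47 50 mg/kg livers and 8.34 to 8.69 in BDE-47 0 mg/kg livers, with no overlap. Without replicate 2 the fall with DE-71 was not called for Abcg5 (adjusted p = 0.071) and lay at the threshold for Abcg8 (adjusted p = 0.05 after rounding). Of the 10 genes of sterol export, 4 fell with DE-71 (1 without replicate 2, against 5.35% and 1.03% of all genes) and 3 with BDE-47 (against 1.68%). The Abcg5 and Abcg8 differences were 1.05 (-0.13 to 2.23) and 1.14 (-0.08 to 2.36) and were not called. A2m, an acute-phase protease inhibitor of the rat, fell by 2.56 with DE-71 and 1.80 with BDE-47. The acute phase and inflammation genes did not all fall. Of 16 measured, DE-71 raised 5 and lowered 3 (against 4.83% and 5.35% of all genes). BDE-47 raised 0 and lowered 3 (against 2.35% and 1.68%). Cyp17a1, a P450 of steroid synthesis, fell by 2.04 and 0.90, and its difference of -1.14 had an adjusted p of 0.28 (0.76 without replicate 2).

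Phenobarbital, in other rats, raised 58 genes at least 2-fold without overlap at the dose labelled 45, for which no unit is given (0.408% of genes). DE-71 raised 46 of these (38 without replicate 2, against 4.83% and 1.7% of all genes) and BDE-47 raised 44 (against 2.35%), with median responses of 1.23 and 1.26 and a median difference of 0.04. A further 16 genes were at least 2-fold lower in those rats (0.113%). Of these 11 fell with DE-71 (7 without replicate 2, against 5.35% and 1.03% of all genes) and 8 with BDE-47 (against 1.68%), with median responses of -1.30 and -1.11.

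**Figure D4:**
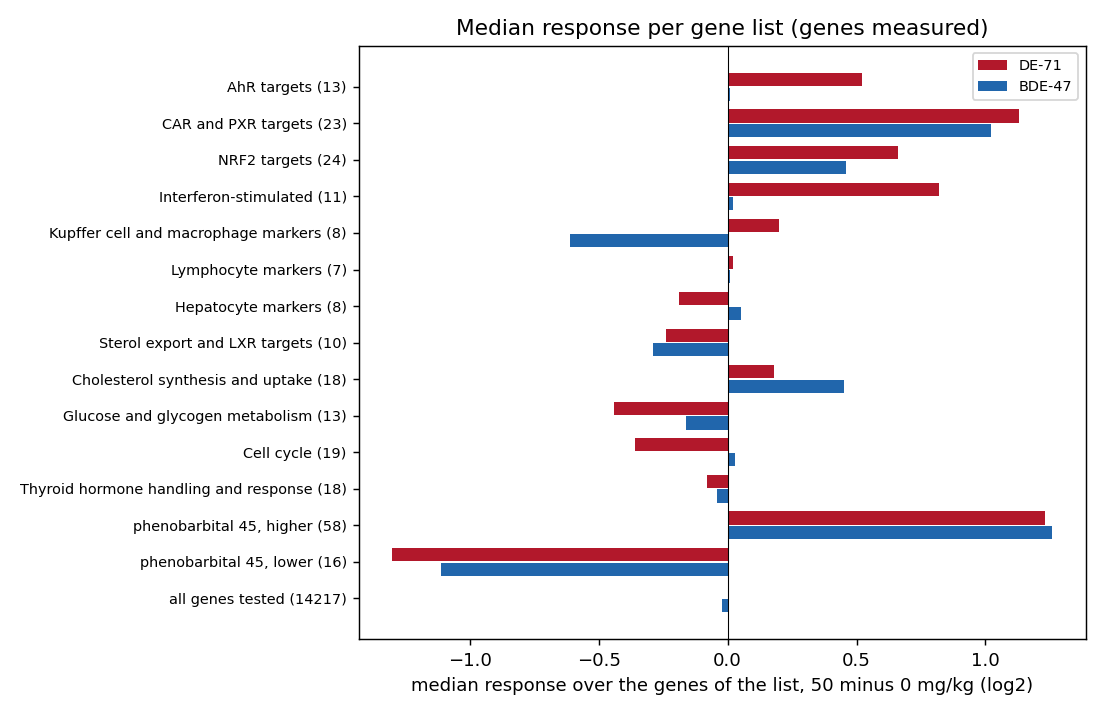
Median response (horizontal axis, log2, 50 minus 0 mg/kg) of the genes of each list to DE-71 (red) and BDE-47 (blue), with the number of genes measured in brackets. CAR and PXR targets have medians of 1.13 and 1.02, while AhR targets, interferon-stimulated genes and macrophage markers have unlike medians.

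In the next lists no member was called in the difference by limma, with 1 to 3 genes per list at an unadjusted p below 0.05. Without the arrays resembling 15 mg/kg arrays, Gsta4 and Pygl were called (adjusted p = 0.03 and 0.046). NRF2 targets, which serve antioxidant defence, rose in 14 of 24 genes with DE-71 (9 without replicate 2, against 4.83% and 1.7% of all genes) and in 7 with BDE-47 (against 2.35%), with median responses of 0.66 and 0.46. Their differences were positive in 20 of 24, against 7572 of all 14217 genes, with a median of 0.20 (0.12 without replicate 2). Gsta4, a glutathione S-transferase, rose by 1.39 and 0.73, and its difference of 0.66 had an adjusted p of 0.1. Genes of glucose and glycogen metabolism fell in 8 of 13 with DE-71 (3 without replicate 2, against 5.35% and 1.03% of all genes) and in 3 with BDE-47 (against 1.68%). Pygl, the liver glycogen phosphorylase, fell by 0.55 with DE-71 and had a BDE-47 response of -0.02, with a difference of -0.53 (adjusted p = 0.12). Pltp, a phospholipid transfer protein, had a DE-71 response of -0.18, fell by 1.20 with BDE-47, and differed by 1.03 (adjusted p = 0.12). Lpl, lipoprotein lipase, had a DE-71 response of 0.85 (adjusted p = 0.083) and rose by 1.96 with BDE-47, with a difference of -1.11 (adjusted p = 0.35). Of 18 thyroid genes 4 changed with DE-71 (2 without replicate 2, against 10.2% and 2.73% of all genes) and 0 with BDE-47 (against 4.03%), where 4 had an unadjusted limma p below 0.05. Of 18 genes of cholesterol synthesis and uptake 15 had a negative difference, against 6645 of all 14217 genes, with a median of -0.24 (-0.15 without replicate 2). Of 19 cell cycle genes 18 had a negative difference, with a median of -0.38 (-0.23 without replicate 2). Only Ccnd1, cyclin D1, fell with either agent, by 1.35 with DE-71 (not called without replicate 2) and 1.31 with BDE-47, and 1 of 19 is near the share of all genes that fell with DE-71 (5.35%). Ttr, the thyroxine carrier, differed by -0.02 (-0.14 to 0.11), at high signals of 14.04 to 14.06 in DE-71 50 mg/kg livers.

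At 15 mg/kg the differences ran the same way for Cyp1a1 and Cyp1a2. The 15 and 50 mg/kg comparisons share their controls, and 1 array of each agent's 50 mg/kg group resembles one at 15 mg/kg, so these values are given side by side and not as support. The Cyp1a1 response to DE-71 was 2.36 at 0.1, 5.78 at 15 and 6.28 at 50 mg/kg, and that to BDE-47 was -1.04, 0.95 and 2.11. For Cyp1a2 the DE-71 responses were 0.34, 0.95 and 1.31 and the BDE-47 responses -0.12, -0.32 and -0.26. Cd74 had DE-71 responses of 0.15, -0.06 and 0.90 and BDE-47 responses of -0.48, -0.77 and -1.29. C1qc had DE-71 responses of 0.18, -0.01 and 0.21, against -0.23, -0.64 and -0.73 for BDE-47. Ces2c reached 3.17 with DE-71 and 3.41 with BDE-47 at 15 mg/kg, where its difference was -0.23 (-0.95 to 0.48).

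**Figure D5:**
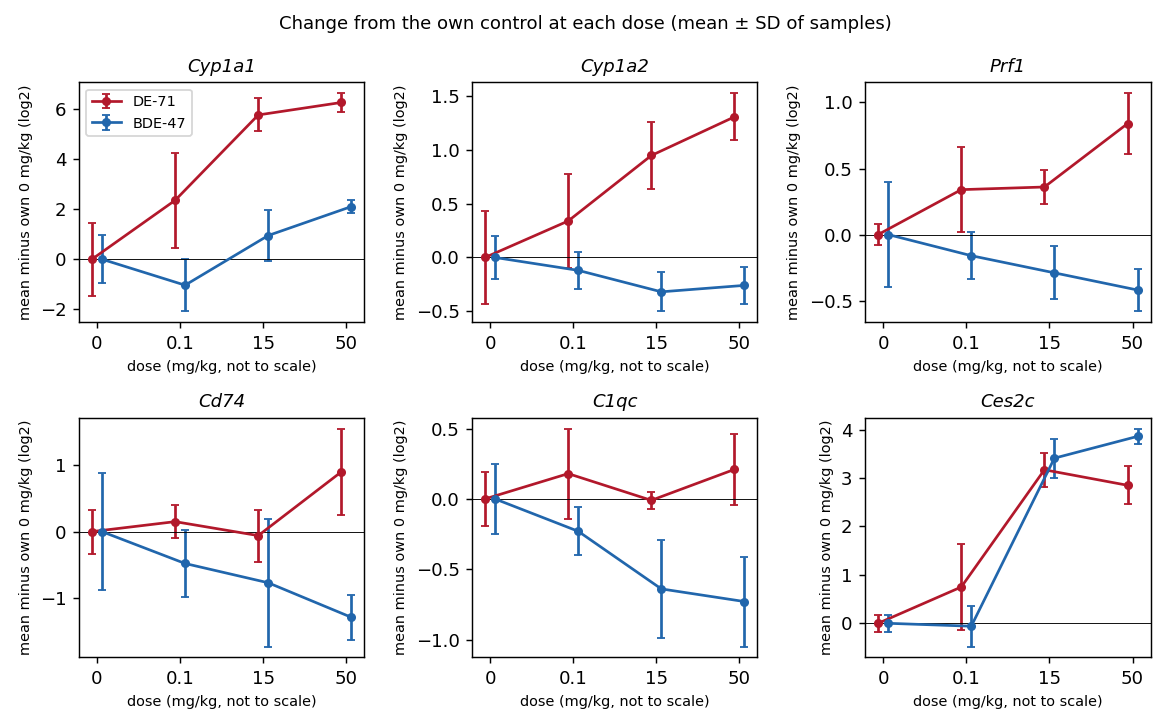
Mean minus the agent's own control mean (vertical axis, log2) at 0, 0.1, 15 and 50 mg/kg (horizontal axis, not to scale), with bars for the SD of samples, for 6 genes and both agents. Cyp1a2 reaches 1.31 with DE-71 and -0.26 with BDE-47 at 50 mg/kg.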

How the data were processed

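The authors deposited log2 expression values per probe set, produced by RMA according to the submitters' processing notes (no version stated). Of 31099 probe sets, 20826 have 1 gene in the 2016 array annotation, and each of 14217 genes was represented by its probe set with the highest mean. The genome build behind the array annotation is not given in the sources used here, and promoter coordinates are those of RefSeq's own build. Two-sided limma 3.58.1 tests in R 4.3.3 (lmFit, eBayes, 15 group means, 72 samples, 57 residual and 5 prior degrees of freedom) gave each response and the difference of responses. P-values were adjusted by Benjamini-Hochberg within a contrast, and genes were called below 0.05; rose and fell refer to called genes. Near-identical arrays of 1 group were averaged. Arrays have no counting depth, so their number limits the precision. The fit was tested on simulated data with each gene's spread averaged over all groups. It recovered 38% of 1.5-fold, 78% of 2-fold and 98% of 4-fold differences there, with 200 genes changed, and made 13 false calls. The same spread was used for every group. The dosed DE-71 livers were more scattered, with mean within-group correlations of 0.9783 to 0.9856, against at least 0.9878 in the other compared groups. Recovery in the real data may therefore be lower. A gene without a call may still differ. Alternatives were other probe set choices, filters, weights, normalization, sample sets and a replicate block. Gene lists (33, plus 2 added after values were seen), named genes and alternatives were chosen with earlier results of these data known. Genes were named as the largest called differences, by list, as index genes and as shared responses; list members beyond this were named after their values were seen.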

Additional observations from a re-analysis of the deposited data

Results flagged for a closer look

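In 272 groups of samples (68 named genes in 4 groups), 11 had a sample far from the others by Dixon's test, and chance alone flags about 1 in 20 groups. In the DE-71 50 mg/kg group, Acp2 in replicate 5 (10.13) and RT1-Bb in replicate 5 (7.74) were high and Sult1b1 in replicate 4 (11.86) was low. In the DE-71 0 mg/kg group, replicate 2 was low for Thrsp (8.92) and Cyp7a1 (8.80). In the BDE-47 50 mg/kg group, Nqo1 in replicate 3 (9.18) and Klrd1 in replicate 4 (2.82) were low. In the BDE-47 0 mg/kg group, replicate 2 was low for Ahrr (3.23), replicate 5 was low for Prf1 (3.46) and high for Cyp2c7 (10.09), and the averaged replicates 3 and 4 were low for Dio1 (6.61). None of these values belonged to DE-71 50 mg/kg replicate 2.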

How the results depend on the processing

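The number of genes called in the difference (17) depended on single samples. Leaving out 1 sample gave 2 to 71 genes, with 2 without DE-71 50 mg/kg replicate 2, 71 without its replicate 4 and 27 without its replicate 3. It gave 8 and 11 without DE-71 0 mg/kg replicates 1 and 5, and 11, 11, 37 and 6 without BDE-47 50 mg/kg replicates 1, 3, 4 and 5. It gave 10, 5 and 29 without BDE-47 0 mg/kg replicates 1, 2 and 5. The count was 0 with only the 4 groups fitted, with or without DE-71 50 mg/kg replicate 2, 6 with array weights and 38 with all arrays separate. It was 53 without the 2 arrays resembling 15 mg/kg arrays, a setting chosen after seeing the data. The replicate number as a block, with all arrays separate, gave 32, although same-numbered samples did not all deviate together (correlations from -0.142 to 0.386). The DE-71 count (1448) ranged from 388 to 1963 over left-out samples, and was 697 with only the 4 groups, 283 when replicate 2 was also left out, and 489 with weights. The BDE-47 count (573) ranged from 359 to 661, and was 270 with only the 4 groups, 369 without replicate 2 as well, 971 with weights, 991 with separate arrays and 1001 with the block. Over the 68 named genes and all alternatives, the difference kept its sign and its side of the threshold in 1775 recomputed values, lost its call in 158, gained one in 58 and changed sign in 40. Only 4 sign changes, counting both responses, involved a called value. With the probe set of highest SD, Abhd11 had a difference of 0.01 and a DE-71 response of 0.11, and RT1-Bb a DE-71 response of 1.92 (0.87 with the mean of all probe sets). The other sign changes were of values called neither in the main setting nor in the alternative. By probe set choice, RT1-Bb had a difference of 3.25 with the highest SD and 1.35 with the mean and a BDE-47 response of -1.34 and -0.48, Cfp had a DE-71 response of -0.10 with the highest SD, and St6galnac2 and Rybp had BDE-47 responses of -0.02 with the mean. With array weights the differences were -0.09 for Tiparp and -0.01 for Ahrr, the DE-71 responses 0.07 for RT1-Bb and -0.11 for Cyp7a1, and the BDE-47 response -0.04 for Isg15. With quantile normalization the DE-71 responses were 0.03 for Tiparp, 0.01 for Ttr and -0.01 for Cyp7a1, and the BDE-47 responses -0.04 for Selenbp1 and 0.02 for Ttr. With separate arrays the Tiparp difference was -0.02 (-0.05 with the replicate block), and with either the BDE-47 responses were 0.01 for Tiparp and -0.03 for Selenbp1 and Thrsp. With only the 4 groups and no replicate 2 the differences were -0.15 for Tiparp and -0.01 for Cyp2c6v1 and the DE-71 responses 0.08 for RT1-Bb and -0.10 for Cyp7a1. Without the 2 arrays resembling 15 mg/kg arrays the differences were 0.05 for Sult1b1 and Dio1, the DE-71 responses 0.08 for Tiparp, 0.04 for Ahrr and 0.13 for Dio1, and the BDE-47 response -0.04 for Selenbp1. Over left-out samples the differences spanned zero for Tiparp (-0.15 to 0.14), Cltrn (-0.70 to 0.15), Gpx2 (-0.88 to 0.13), Cyp2c6v1 (-0.02 to 0.06), Sult1b1 (-0.42 to 0.06), Ttr (-0.03 to 0.01), Thrsp (-0.13 to 0.44) and Afp (-0.13 to 0.30). The DE-71 responses did so for Tiparp (-0.17 to 0.12), Ahrr (-0.05 to 0.04), RT1-Bb (-0.79 to 0.09), Fmo5 (-0.05 to 0.24), Dio1 (-0.24 to 0.13), Thrsp (-0.09 to 0.48) and Cyp7a1 (-0.19 to 0.25). The BDE-47 responses did so for Nqo1 (-0.15 to 0.36), Tiparp (-0.11 to 0.09), RT1-Bb (-0.07 to 0.65, with 0.62 without BDE-47 0 mg/kg replicate 5), Ciita (-0.11 to 0.01), Isg15 (-0.16 to 0.22), Selenbp1 (-0.10 to 0.07), Rybp (-0.02 to 0.09), Dio1 (-0.04 to 0.32), Thrsp (-0.13 to 0.25), Pygl (-0.09 to 0.07) and Bub1b (-0.13 to 0.21), and reached 0.00 for Ttr. The remaining sign changes had values that round to 0.00. The causes were not tested. Few samples per group, and dim signals such as Prf1, limit these results.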
